A study of Mus musculus with 2 samples.

Results

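The Notch receptors and ligands are described here as a family of 10 genes, in a comparison of ATDC5 cells labelled as overexpressing HES1 with ATDC5 cells labelled as overexpressing GFP. The genes were chosen by name: the receptors Notch1, Notch2, Notch3 and Notch4, the ligands Dll1, Dll3, Dll4, Jag1 and Jag2, and the ligand relative Dlk1. All 10 had a probe, out of 20433 genes that could be named on the array, and 8 of the 10 were seen on 1 or both arrays, as were 14273 of the 20433. A probe is called seen where the scanner software flagged its signal as well above background.

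ATDC5 is a mouse chondrocyte line of teratocarcinoma origin that can be driven through cartilage differentiation. Both lines were stable and made by lentiviral transduction, 1 carrying HES1 and 1 carrying the fluorescent protein GFP as the control. The labels do not say whether a line was 1 clone. After 3 days as a monolayer on 60 mm dishes, total RNA was taken from each line and read on 1 Agilent mouse array with 1 colour. With 1 array per line there was no replicate check on any difference, and no p-value is given.

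Notch receptors are single-pass membrane proteins that are cut when a ligand on a neighbouring cell binds them. The freed intracellular part enters the nucleus, joins the DNA-binding protein RBPJ and a Mastermind coactivator, and switches on genes of the HES and HEY families. HES1 is one of these outputs: a basic helix-loop-helix repressor that binds N boxes and class C sites in DNA, and that in mouse neural progenitors represses the ligand gene Dll1. In cartilage the pathway is known for holding back early chondrocyte differentiation and for acting on later maturation.

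Because HES1 is a DNA-binding repressor, the stretch of DNA before the start site is shown for 3 members: Notch3 and Dll1, which differed most among the receptors and ligands proper, and Jag1, which stayed within 2-fold. Each sequence is the 250 bases before the gene's farthest upstream start in the promoter table, from RefSeq on GRCm38.p6, written 5′ to 3′ on the gene's strand, which is the minus strand for each of the 3. Capitals mark matches to the N box CACNAG or the class C site CACGCG on either strand. These are different letters, so a match to one is not a match to the other.
Notch3 (chr17:32166891-32167140): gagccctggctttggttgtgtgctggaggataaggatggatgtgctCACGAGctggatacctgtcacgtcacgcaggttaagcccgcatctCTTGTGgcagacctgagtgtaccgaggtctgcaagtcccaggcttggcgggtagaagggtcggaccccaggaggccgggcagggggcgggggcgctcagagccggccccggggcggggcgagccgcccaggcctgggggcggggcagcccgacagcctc
Dll1 (chr17:15376933-15377182): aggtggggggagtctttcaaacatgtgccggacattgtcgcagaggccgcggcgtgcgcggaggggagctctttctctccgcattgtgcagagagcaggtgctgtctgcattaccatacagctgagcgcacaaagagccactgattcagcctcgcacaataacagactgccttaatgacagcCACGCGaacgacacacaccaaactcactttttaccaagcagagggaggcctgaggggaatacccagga
Jag1 (chr2:137116521-137116770): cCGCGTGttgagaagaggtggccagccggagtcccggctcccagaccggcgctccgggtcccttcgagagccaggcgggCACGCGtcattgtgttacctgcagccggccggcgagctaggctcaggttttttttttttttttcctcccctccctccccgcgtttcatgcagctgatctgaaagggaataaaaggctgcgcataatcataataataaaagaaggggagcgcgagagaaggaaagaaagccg
Notch3 held 2 N boxes and no class C site. Dll1 held 1 class C site, 68 to 63 bases before the start, and no N box, and the window of its second start in the table held neither. Jag1 held 2 class C sites and no N box. Across the family, counting the farthest upstream start of each gene, 4 of 10 members had an N box (Notch1, Notch2, Notch3 and Dll4), against 36.7% of the 32851 windows in the table, and 4 of 10 had a class C site (Notch2, Dll1, Dll4 and Jag1), against 7.62%. The RBPJ site core TGGGAA was in 0 of the 10, against 21.6% of windows. The members' windows held 52% to 87.2% G and C, against a median of 52.4% over all windows. The shares over all windows were not matched for G and C or limited to 1 start per gene, so no excess is read from them. A match describes letters in a window and does not show that a protein binds there.

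Signals are in scanner units, with the 75th percentile of each array scaled to 1057.2. They can be compared between the samples for 1 probe but not between probes, so the members are not put in an order of level. The flag that makes a probe seen was on 56.6% of spots on the HES1 array and 54.6% on the GFP array. The mouse Hes1 probe was seen on neither array, at 10.3 in the sample labelled HES1 and 10.2 in the GFP sample, so it checked neither label and a transgene that lacks the probe's sequence would not be seen. Of 7 chondrocyte markers, 6 were seen on both arrays and Matn3 on neither. None of the 6 was past 2-fold, but their median log2 difference was -0.63, from -0.90 (Col2a1) to 0.10 (Col9a1). The summed signal of all 7 was 11994 in the sample labelled HES1 and 19889 in the GFP sample. The part of that shift in the values of the Notch genes was not tested. Irf7, a transcription factor of the interferon response named here after its value was seen, read 25160 in the sample labelled HES1 and 52.8 in the GFP sample, and its part in the values of the Notch genes was not tested.

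Of the 8 members seen on at least 1 array, Dll1 and Notch3 (2 members) were 2-fold or more higher in the sample labelled HES1, Dlk1 (1 member) was 2-fold or more lower, and 5 lay within 2-fold. Among all 14273 genes, 11.1% were that much higher and 4.95% that much lower. With 1.5-fold in place of 2-fold the counts were again 2 members higher and 1 lower, against 17.4% and 14.6% of all genes. With 3-fold they were 2 and 1, against 6.99% and 1.25%. All 3 members past 2-fold were seen on a single array. Dll1 and Notch3 were seen on the HES1 array only, as were 6.48% of all genes, and Dlk1 on the GFP array only, as were 1.93%. For such a gene the fold is given as a bound. It divides the bright signal by the higher of 2 values from the dim array: the probe's own signal, and the lowest signal flagged there as well above background (39.0 for HES1 and 38.1 for GFP). The bound is not a strict minimum, because some signals without the flag lay above that lowest signal, and other processing gave smaller differences. Counted by bounds, 2 members reached 2-fold higher and 0 reached 2-fold lower, against 9.49% and 4.47% of all genes. The median log2 difference of the 8 members was -0.23, against -0.06 over all 14273 genes. RNA was taken from whole cultures, so fewer cells that express a gene and less of its RNA per cell cannot be told apart.

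**Figure D1:**
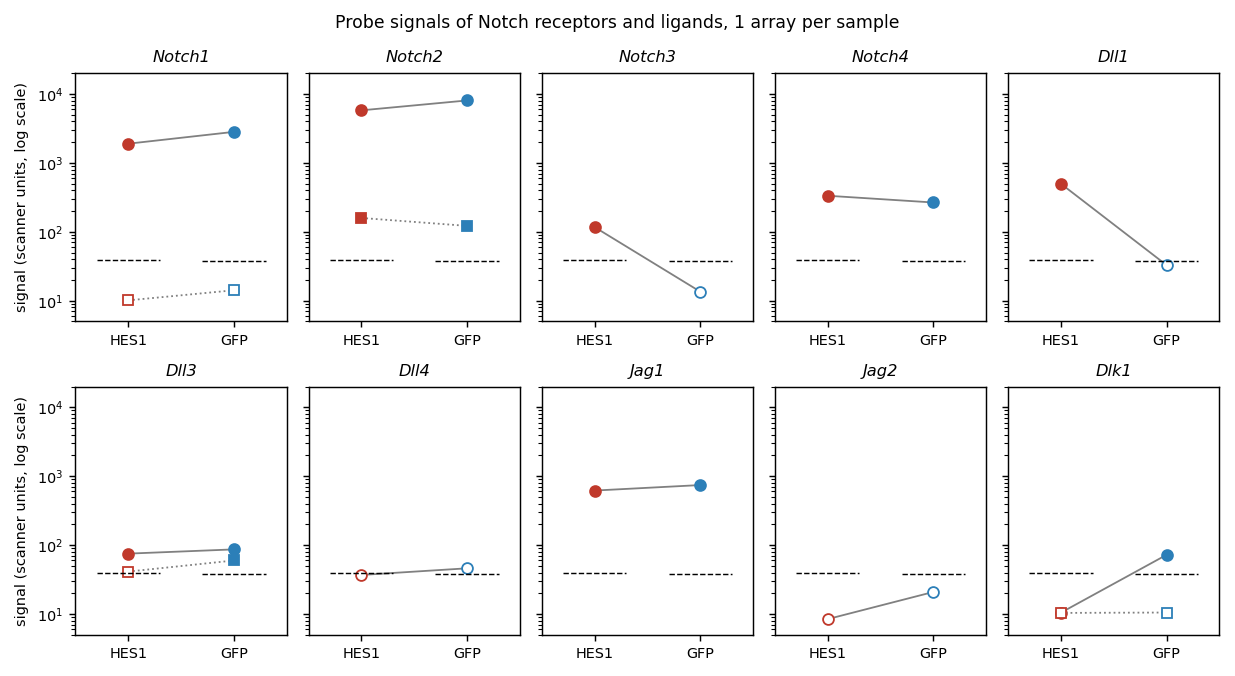
Signal of each probe (log scale, scanner units) on the HES1 array (red) and the GFP array (blue), 1 panel per gene. Filled points were well above background and open points were not; circles and solid lines are the brighter probe, squares and dotted lines the second probe, and dashed lines the lowest signal well above background (39.0 and 38.1). Dll1 and Notch3 are filled only on the HES1 side, and Dlk1 only on the GFP side.

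The 4 receptors were all detected on at least 1 array, and Notch3 was the member of this group that differed most. Notch3, the receptor known from vascular smooth muscle, had a signal of 117 in the sample labelled HES1, against 13.5 in the GFP sample. The HES1 spot had a median pixel value of 179 over a local background of 51, and the GFP spot 98 over 48, before any correction. Only the HES1 spot was well above background, and the bound for Notch3 was 3.07-fold higher. The measured log2 difference was 3.11, with a technical error of 0.92 from the scanner software's error on the 2 signals. Of the 925 genes seen on the HES1 array only, 46.9% had a bound of 2-fold or more and 28.4% one at least as high as that of Notch3. This value rests on 1 spot per array.

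Notch1, the founding mammalian receptor, was lower in the sample labelled HES1, at 1899 against 2820 in the GFP sample. Its log2 difference of -0.57 was larger than its technical error of 0.20 and stayed within 2-fold. Its second probe was seen on neither array, at 10.1 in the sample labelled HES1 and 14.2 in the GFP sample, and gives no fold. Notch2, a receptor that shares much of its domain structure with Notch1, had 2 probes that pointed in opposite directions. The brighter probe read 5790 in the sample labelled HES1 and 8055 in the GFP sample (log2 difference -0.48, technical error 0.20). The dimmer probe read 159 in the sample labelled HES1 and 122 in the GFP sample (log2 difference 0.38, technical error 0.26). Both probes were seen on both arrays, so these data give no single direction for Notch2. Notch4, best known from endothelium, read 334 in the sample labelled HES1 and 266 in the GFP sample, a log2 difference of 0.33 with a technical error of 0.22.

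Among the ligands, Dll1 had the largest measured difference and is also the member with the most spots, because its probe was printed 10 times on each array. Its GFP signal was below the background flag, so the size of its difference is less certain than the number of spots implies. Dll1 is the Delta ligand that activates Notch on neighbouring cells in the paraxial mesoderm and nervous system. Its 10 spots in the sample labelled HES1 ran from 469 to 570 with a median of 489, and its 10 spots in the GFP sample ran from 18.4 to 45.6 with a median of 34.6. The lowest HES1 spot was 10.3 times the highest GFP spot. The share of other replicated probes whose spots also lay apart is not given here. All 10 HES1 spots were well above background and 0 of the 10 GFP spots were.

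Averaged over spots, Dll1 had a signal of 497 in the sample labelled HES1 and 32.8 in the GFP sample. Before any correction, the median pixel value had a median over spots of 386.5 over a local background of 44.25 on the HES1 array. On the GFP array it was 107 over 43. The measured log2 difference was 3.92 and the bound was 13.0-fold higher. The SD between spots on the log2 scale was 0.09 on the HES1 array and 0.39 on the GFP array. For comparison, 235 replicated probes above background on both arrays had an SD over spots with a median of 0.06 and a 90th percentile of 0.11, so the Dll1 SD lay between those values on the HES1 array and above them on the GFP array, where its spots were dim. The spots of an array share 1 RNA, so they measure technical spread and not the spread between cultures. A looser scanner flag, which marks a signal as positive and significant against background, was carried by all 10 Dll1 spots on the HES1 array and by all 10 on the GFP array. That flag was on 79.3% of all spots on the HES1 array and 76.0% on the GFP array. Of the genes seen on the HES1 array only, 7.46% had a bound at least as high as that of Dll1.

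**Figure D2:**
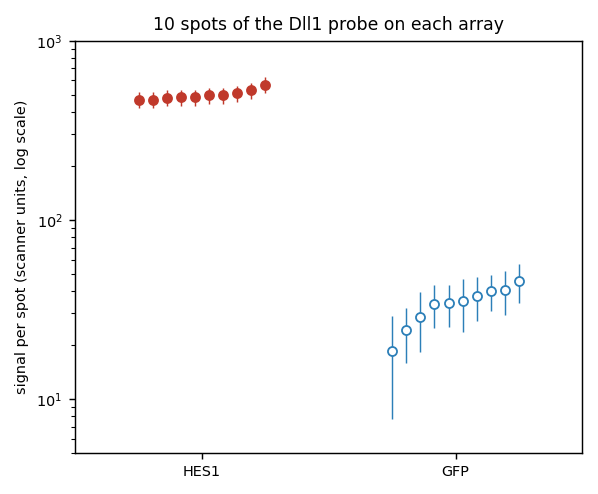
Signal of each of the 10 Dll1 spots (log scale, scanner units) on the HES1 array and the GFP array, in order of size within an array. Bars are the scanner software's error of a spot, filled points were well above background and open points were not; the HES1 spots run from 469 to 570 and the GFP spots from 18.4 to 45.6.

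The other ligands were dim or differed little. Jag1, a Jagged ligand and the gene mutated in most people with Alagille syndrome, read 619 in the sample labelled HES1 and 744 in the GFP sample (log2 difference -0.26, technical error 0.21). Dll3, a divergent Delta protein that in mouse stays largely inside the cell and does not activate Notch on neighbours, read 75.2 in the sample labelled HES1 and 86.7 in the GFP sample. That log2 difference of -0.20 was smaller than its technical error of 0.30. The second Dll3 probe was seen in the GFP sample only, at 41.3 in the sample labelled HES1 and 59.8 in the GFP sample. Its measured log2 difference was -0.53 with a technical error of 0.41. Both Dll3 probes therefore pointed the same way, at sizes below 2-fold.

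Dll4 and Jag2 were seen on neither array, so no fold is given for them. Dll4, the Delta ligand of endothelial tip cells, had signals of 36.9 in the sample labelled HES1 and 46.1 in the GFP sample. Jag2, a Jagged ligand needed for limb and palate development in mouse, had signals of 8.44 in the sample labelled HES1 and 20.9 in the GFP sample. The looser flag was on both Dll4 spots, and on the Jag2 spot of the GFP array but not that of the HES1 array.

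Dlk1, also called Pref-1, is a membrane protein related to the Delta ligands that lacks the domain with which they activate Notch; it is known for holding back adipocyte differentiation. Its brighter probe read 10.5 in the sample labelled HES1 and 72.3 in the GFP sample, and was seen in the GFP sample only. The HES1 spot had a median pixel value of 83 over a local background of 36, and the GFP spot 123.5 over 45. The measured log2 difference was -2.79 with a technical error of 1.47. The bound for Dlk1 was 1.85-fold lower, which does not reach 2-fold. Its second probe was seen on neither array, at 10.4 in the sample labelled HES1 and 10.5 in the GFP sample. The Dlk1 value thus rests on 1 spot per array of 1 probe. Of the 275 genes seen on the GFP array only, 22.2% had a bound of 2-fold or more and 26.5% one at least as low as that of Dlk1.

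**Figure D3:**
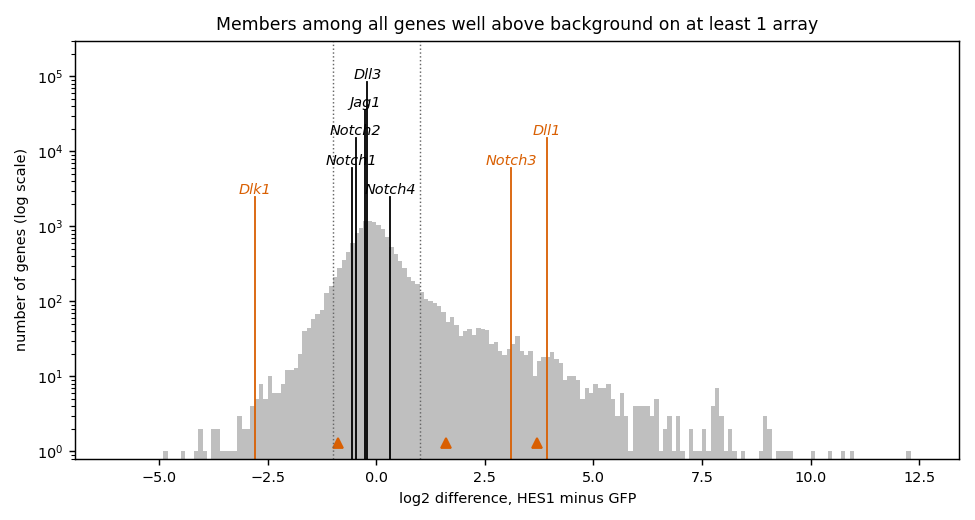
Number of genes (log scale) by log2 difference, HES1 minus GFP, for the 14273 genes well above background on at least 1 array. Black lines are members seen on both arrays, orange lines members seen on 1 array with their bound as an orange triangle, and dotted lines the 2-fold limits; Dll1 and Notch3 lie on the right, Dlk1 on the left, and the 5 other members between the limits.

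The 5 members seen on both arrays lay close together, from -0.57 for Notch1 to 0.33 for Notch4 on the log2 scale. None of the 5 was past 2-fold, against 11.5% of the 13073 genes seen on both arrays (7.04% higher and 4.41% lower). Their median was -0.26, against -0.09 over those genes. Of the 5, 4 were lower in the sample labelled HES1 by their brighter probe, with Notch2 split between its probes, against 57.9% of all genes seen on both arrays. The difference exceeded the technical error for 4 of the 5 (Notch1, Notch2, Notch4 and Jag1), against 65.3% of all such genes.

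The neighbouring genes named here for the members past 2-fold lay within 2-fold, with 1 exception beside Dlk1. Neighbours were the 3 nearest genes on each side that were seen on at least 1 array, in the order of the GRCm38.p6 gene table. Around Dll1 on chromosome 17 the 6 neighbours ran from -0.26 (Psmb1) to 0.52 (Gm3448) on the log2 scale. The nearest one after it, Fam120b, read 507 in the sample labelled HES1 and 502 in the GFP sample. Near Notch3, also on chromosome 17, Sik1 was at 0.62 and Akap8 at -0.26. Around Dlk1 on chromosome 12 they ran from -1.18 to 0.52.

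The neighbour of Dlk1 that was past 2-fold was Mirg, a noncoding RNA of the same imprinted domain, at 56.4 in the sample labelled HES1 and 128 in the GFP sample. Its log2 difference was -1.18 with a technical error of 0.35. Of the 7 genes listed for this Dlk1-Dio3 domain, 3 were seen, of which 1 was past 2-fold (lower), with a median of -0.76. The other 2 were Begain, at 197 in the sample labelled HES1 and 334 in the GFP sample (log2 difference -0.76), and Wdr25, at a log2 difference of -0.24. All 3 are also among the neighbours of Dlk1 above, so the domain list adds no further seen gene. Among all genes seen on both arrays, as these 3 were, 4.41% were 2-fold or more lower. Rtl1, Dio3 and Meg3 were seen on neither array, so no fold is given for them. In the sample labelled HES1 and the GFP sample, Rtl1 read 12.4 and 22.7, and Dio3 read 8.83 and 7.63. Meg3, by the brightest of its 3 probes, read 45.1 in the sample labelled HES1 and 9.18 in the GFP sample, with a technical error of 1.49 on the log2 scale. No direction is read from it.

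The rest of the Notch pathway was mostly within 2-fold. Of 57 other pathway genes in 6 lists, 48 were seen on at least 1 array. Past 2-fold were 3 that were higher (2 by bounds) and 3 that were lower, with a median log2 difference of -0.18. The background shares for such calls are the 11.1% and 4.95% given above.

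Among 6 unconventional ligands and DLK relatives that were seen, 1 was past 2-fold in each direction. Ccn3, a secreted matricellular protein that can bind Notch1, was 8.61-fold higher, at 1047 in the sample labelled HES1 and 122 in the GFP sample (log2 difference 3.11, technical error 0.23). Mfap5, a microfibril protein that can bind Jag1, was 2.54-fold lower, at 124 in the sample labelled HES1 and 314 in the GFP sample. The other 4 were within 2-fold. Of the 6 glycosyltransferases that modify the EGF repeats of Notch, Lfng was 2.75-fold lower, at 144 in the sample labelled HES1 and 397 in the GFP sample, and 5 were within 2-fold. Lfng, or Lunatic fringe, adds sugars that shift receptors towards Delta ligands.

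Among 12 genes of ligand and receptor traffic that were seen, 1 was past 2-fold. Dtx3l, a ubiquitin ligase of the Deltex family that is also known as an interferon-stimulated gene, was 22.4-fold higher, at 17414 in the sample labelled HES1 and 777 in the GFP sample. The log2 difference was 4.49 by this probe and 3.39 by its other probe. All 8 cleavage genes that were seen, which include the sheddase gene Adam10 and gamma-secretase subunits, were within 2-fold, from -0.89 (Aph1b) to 0.33 (Psenen). Of 13 nuclear complex genes, 12 were within 2-fold and Maml3, a Mastermind coactivator, was 2.34-fold lower. Maml3 read 1162 in the sample labelled HES1 and 2720 in the GFP sample, with a log2 difference of -1.52 by a second probe.

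Of 7 target genes, 3 were seen: Hes7 and Hey1 within 2-fold and Hey2 on the HES1 array only. Hey1, a repressor that Notch switches on in many tissues, read 227 in the sample labelled HES1 and 256 in the GFP sample, a log2 difference of -0.17 within its technical error of 0.22. Hey2 read 61.8 in the sample labelled HES1 and 9.06 in the GFP sample, with a bound of 1.62-fold higher. Hes1, Hes5, Heyl and Nrarp were seen on neither array.

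**Figure D4:**
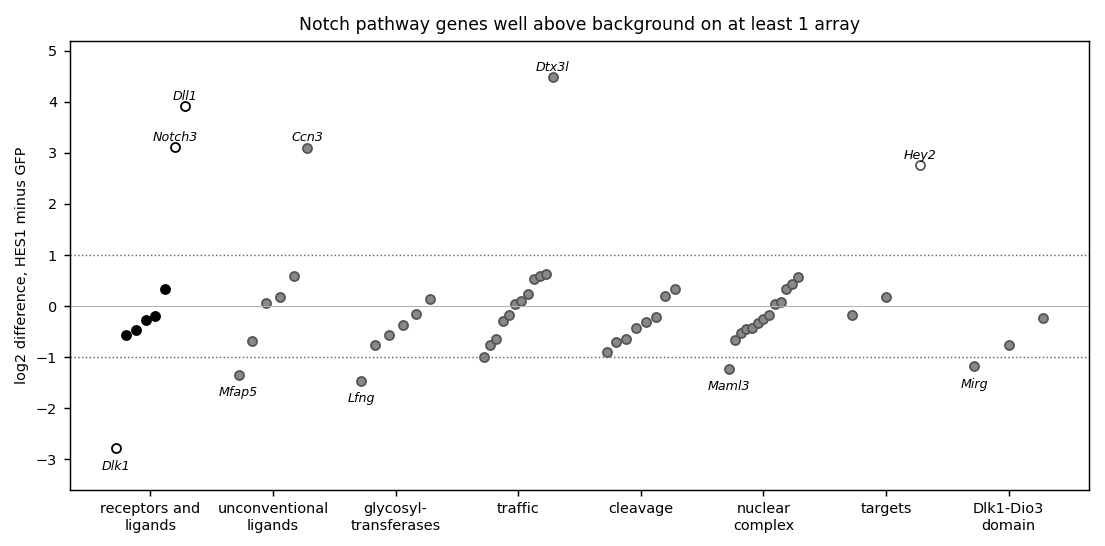
Log2 difference, HES1 minus GFP, of each Notch pathway gene well above background on at least 1 array, grouped by role, with the receptors and ligands at the left in black. The Dlk1-Dio3 imprinted domain is also drawn. Its genes, with Mirg among them, are listed for their position and are not in the count of pathway genes. Filled points were seen on both arrays and open points on 1, dotted lines are the 2-fold limits, and genes past them are named. Dtx3l is the highest at 4.49; the open point of Dlk1 is its measured value of -2.79, while its bound is -0.89, above Lfng, Mfap5 and Maml3.

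Notch3, Notch4 and Dll4 are also known from vessels, and Dll1 from the nervous system, so marker lists of those and other cell types are given beside them. A summed signal adds probes of different genes, so its brightest probes weigh most. The background shares for calls 2-fold higher and lower are again 11.1% and 4.95% of the genes seen on at least 1 array. Of 6 endothelial markers measured, 3 were seen and 1, Esam, was past 2-fold by its measured signals (72.5 in the sample labelled HES1 and 25.1 in the GFP sample) but not by its bound, with a list median of 0.06 and a summed signal of 8972 in the sample labelled HES1 and 8592 in the GFP sample. Most of the endothelial sum came from Kdr, at 8691 in the sample labelled HES1 and 8354 in the GFP sample, and the list median is its value. The endothelial cadherin gene Cdh5 was seen on neither array, at 10.9 in the sample labelled HES1 and 10.6 in the GFP sample. Of 6 smooth muscle and pericyte markers, 4 were seen and 0 were past 2-fold, with a median of -0.25 and a summed signal of 38822 in the sample labelled HES1 and 44718 in the GFP sample, and Myh11 and Rgs5 were seen on neither array.

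Of 5 neural markers, 4 were seen and 2 were at least 2-fold higher, Nes (2.32-fold) and Tubb3 (2.04-fold), with differences from -0.09 to 1.21 on the log2 scale. All 4 were seen on both arrays, and 7.04% of all genes seen on both arrays were that much higher. The summed signal of all 5 was 4322 in the sample labelled HES1 and 2240 in the GFP sample, and Dcx was seen on neither array. Of 4 adipocyte markers measured, 3 were seen and 0 were past 2-fold, with a median log2 difference of -0.70. The summed signal of the 4 measured was 3742 in the sample labelled HES1 and 3231 in the GFP sample, most of it from Pparg (3600 and 3003). Cebpa was at -0.85 and Fabp4 at -0.70 on the log2 scale. Of 5 leukocyte markers, 3 were seen and 0 were past 2-fold, with a median of 0.04 and a summed signal of 2626 in the sample labelled HES1 and 2593 in the GFP sample. The part of the neural markers in the Dll1 value was not tested.

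How far the signals of the 3 members past 2-fold could move was shown by other ways of processing them. Under an alternative that joined a normexp correction (offset 50), median spot signals and quantile normalization, the log2 difference was 1.82 for Dll1, 0.80 for Notch3 and -0.44 for Dlk1. Of the 3, Dll1 alone stayed past 2-fold in that setting. The other members moved by less than their technical error under every alternative tried, except Notch2, whose median over both probes was -0.05.

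**Figure D5:**
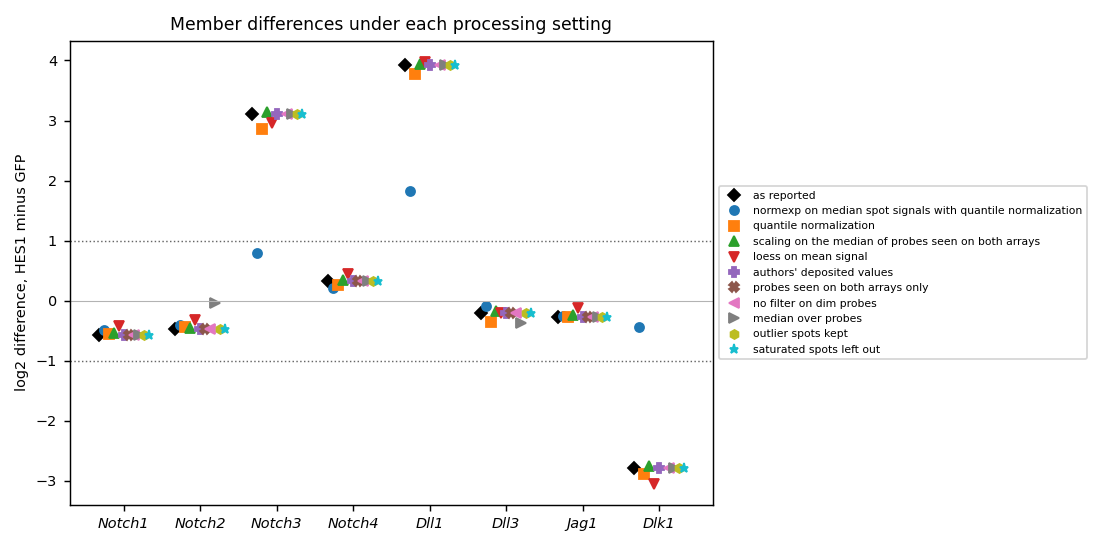
Log2 difference, HES1 minus GFP, of the 8 members seen on at least 1 array under the reported processing (black diamonds) and each alternative (other symbols), with dotted lines at the 2-fold limits. Dll1 stands at 1.82 and Notch3 at 0.80 under the normexp correction with quantile normalization, and no member changes the sign of its difference.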

How the data were processed

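Gene expression was measured in 2 RNA samples on 1 slide of single-colour Agilent arrays annotated on mm9, per the file headers. The scanner software was Agilent Feature Extraction 10.10.1.1, per the submitters' processing notes. The deposited scanner files hold an intensity per spot after background correction by that software, per the file headers, and hold no scaling from array to array. The authors' deposited value table equalled that intensity times 1 factor per array (1.53 for HES1 and 1.45 for GFP).

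Each processed signal was divided by the 75th percentile of the 59305 non-control spots of its array, and log2 was taken. Spots with an outlier flag on either array (1053) were left out, 0 were saturated, and spots of a probe were averaged. A gene with several probes took the brightest one that passed the background flag on either array. Accessions were named through a RefSeq table of GRCm38.p6, used for names and gene order. The promoter table matched all 10 members.

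The members and lists were chosen with earlier results of these data known. The named genes were all 10 members, Hes1, up to 4 genes past 2-fold per list and 3 neighbours on each side, of which some are not reported here. Names beyond this rule (Irf7, and list genes within 2-fold or below background) were chosen after their values were seen. No genes were named for a pattern like a member's, because 2 arrays give 1 difference. Functions were tested on simulated data in which no probe was seen on 1 array only, so the bounds were not tested. Python 3.11.15, R 4.3.3 and limma 3.58.1 were used. The number of arrays limits the precision.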

Additional observations from a re-analysis of the deposited data

How the results depend on the processing

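No paired analysis was possible because each group held 1 array. Of 77 member differences recomputed under 10 alternatives, 73 moved by less than the technical error, 4 moved by more and 0 changed sign. Part of this tally could not move, so it does not measure robustness. No spot was saturated, and the deposited values are the same intensities times 1 factor per array. Keeping outlier spots, dropping the dim filter or using only probes seen on both arrays returned the reported value of each member covered. The median over probes could not move members with 1 probe. The count of members at least 2-fold higher was 2 as reported, 1 under the normexp correction with quantile normalization and 0 over probes seen on both arrays only. The cause of the move under normexp with quantile normalization was not tested. The count at least 2-fold lower was 1 as reported, 0 under normexp with quantile normalization, 0 over probes seen on both arrays only, 0 by bounds and 2 with no filter on dim probes, where Jag2 joined Dlk1. The loss of calls over probes seen on both arrays follows from leaving out Dll1, Notch3 and Dlk1. The members' median ran from -0.31 with quantile normalization to -0.16 over the median of probes. The loess fit moved the median of all genes by 0.13, and relative to all genes the members' median was -0.24 there, against -0.17 as reported. Over all genes, the normexp correction left 846 past 2-fold upward and 338 downward, against 1582 and 707 as reported. Mean spot signals were not used here, so the normexp correction ran on median spot signals. Signals close to background limit Notch3 and Dlk1 most, each with 1 spot per array.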
